A study of Mus musculus with 12 samples.

Results

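The first step of terminal erythropoiesis, from proerythroblasts (Pro) to basophilic erythroblasts (Baso), was examined by RNA-seq of sorted mouse bone marrow cells. It was covered by 6 of the 12 libraries of the study, 3 labelled Pro and 3 labelled Baso. The other 6 were polychromatic (Poly) and orthochromatic (Ortho) erythroblasts, and the Poly libraries were used here for the step that follows. All cells came from bone marrow (BM) of WT animals, described as 8-week C57/BL6 male mice without a stated treatment. CD45+ cells were removed on magnetic columns, and cells that stained for CD45, CD11b or GR1 were gated away. Pro cells were taken as CD44 high and Ter119 low, and Baso cells as the Ter119-positive cluster set by CD44 and forward scatter. The gates therefore limit what a group stands for: a Pro library is all RNA in a CD44 high, Ter119 low gate, and how many mice were pooled in a library was not given in the sources used here.

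Proerythroblasts are the earliest erythroblasts that can be told apart under the microscope; they are large, rich in ribosomes and nucleoli, and still growing between divisions. Basophilic erythroblasts are their daughters, smaller cells that fill with the RNA of the red cell program, of which the globins, the enzymes and carriers of heme synthesis and the proteins of the red cell membrane are the best known parts. In the later stages chromatin condenses, organelles are cleared and the nucleus is expelled.

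The values were FPKM, in which fragments of a gene are divided by its length and by the fragments mapped in the library, which set levels of genes of different length on a common scale. Of 29838 genes, 12284 reached an FPKM of 1 in 3 or more of the 6 Pro and Baso libraries. They were tested on log2(FPKM + 1), so that fold changes of genes with low values are understated. A gene was called when limma gave an adjusted p under 0.05 and the log2 fold change was at least 1 in size. As deposited, 1335 genes (10.9% of those tested) were called, 230 higher in Baso (1.87%) and 1105 lower (9%). The summed FPKM of globin genes was 38921, 56055 and 36554 in Pro 1, Pro 2 and Pro 3 and 206291, 222165 and 191024 in Baso 1, Baso 2 and Baso 3. This was between 6.98% and 10.7% of all FPKM in Pro and between 33.2% and 36.7% in Baso. Because values within a library share a total, the test was repeated with globin genes left out and each library rescaled to the same sum. Of 12278 genes, 897 (7.31%) were then called, 480 higher (3.91%) and 417 lower (3.4%), and the median over all genes went from -0.26 to 0.01 on the log2 scale, a shift of 0.29 for the median gene. Higher genes were 17.2% of the calls as deposited and 53.5% with globin genes left out; the share was 57.9% when libraries were centred on their medians and 8.48% when they were rescaled to 1 common sum that included the globins. The genes described here as having risen or fallen were, unless another scale is named, called in the same direction on both scales: 224 rose (1.82%) and 417 fell (3.4%), and no gene was called in opposite directions.

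**Figure D1:**
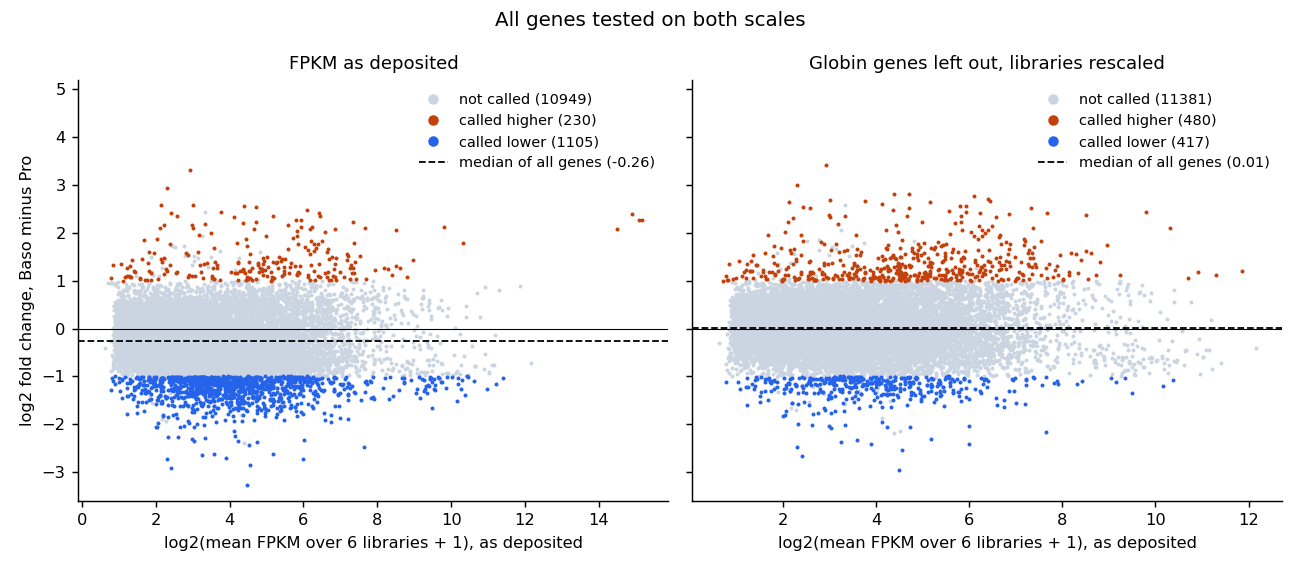
Each point is 1 gene, with its mean over the 6 libraries on the x axis, as log2(mean FPKM + 1), and its log2 fold change, Baso minus Pro, on the y axis. Left, FPKM as deposited, with 230 genes called higher and 1105 lower and a median of -0.26 (dashed line); right, globin genes left out and libraries rescaled, with 480 called higher and 417 lower and a median of 0.01.

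The Pro libraries correlated with each other at r = 0.973 to 0.982 over genes, the Baso libraries at 0.980 to 0.983, and Pro with Baso libraries at 0.910 to 0.953; each library had 11964 to 12297 genes at an FPKM of at least 1. Defining erythroblast markers were present in both stages, with all 12 tested. Markers of other cell types were present too, although the sort removed CD45+, CD11b+ and GR1+ cells. The summed FPKM of 18 neutrophil markers was 7999 to 9738 in Pro and 13383 to 15716 in Baso, and 16 of the 18 had every Baso library above every Pro library (background 16.7%). None of the 18 was called as deposited, where 17 had a higher mean in Baso at an unadjusted p under 0.05 in limma, against 17% of all genes. With globin genes left out 7 were called higher, against 3.91% of all genes. The most abundant, S100a8, had 1603, 1779.7 and 2167 FPKM in Pro and 3529, 2823 and 3251 in Baso. Sums were also higher in Baso for 14 B cell markers (102 to 162 against 180 to 218). The same held for 7 plasma cell markers (412 to 640 against 790 to 986). It held too for 8 markers of basophils, mast cells and eosinophils (874 to 1122 against 1207 to 1534). Sums overlapped for 12 macrophage markers (72.7 to 82.5 against 73.7 to 84.5) and 12 of megakaryocytes and platelets (84.4 to 147 against 55.3 to 124). They also overlapped for 7 markers of stroma and endothelium (14.4 to 101 against 13.1 to 17.9). The range of the last list came from Col1a1, a collagen of fibroblasts and bone, with 7.58, 91.6 and 20.1 FPKM in Pro 1, Pro 2 and Pro 3. The sums were 27.4 to 41.5 against 47.5 to 54.4 for 12 T and NK cell markers. They were 35.1 to 41.3 against 46.9 to 49.9 for 9 stem and early progenitor markers. All these sums also include listed markers that were too low to be tested. The part of these cells in the results below was not tested. In sorted bulk RNA, fewer cells of a type and less RNA per cell cannot be told apart.

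All 6 globin genes tested were called higher as deposited, by 1.99 to 2.38 on the log2 scale, and these genes have no value on the other scale, which leaves them out. Hbb-bs, an adult beta globin, had 8225, 13138 and 8547 FPKM in Pro 1, Pro 2 and Pro 3 and 50530.3, 56061 and 46346 in Baso 1, Baso 2 and Baso 3. Hba-a1, an adult alpha globin, had 10629, 16776 and 10984 in Pro and 60476, 63339.9 and 57124 in Baso. Pro 2 was the highest Pro library for both, and every Baso library lay above every Pro library. The theta globin gene Hbq1b, which is expressed at low levels in erythroid cells, went from 28.2, 36 and 18.1 to 119, 115 and 113 FPKM, a log2 fold change of 2.09 (SE 0.17), so its ratio was close to that of the abundant globins at a far lower level. The pairs Hbb-bs and Hbb-bt, and Hba-a1 and Hba-a2, are nearly identical in sequence, and how reads were split within a pair is uncertain. In the next step, Poly minus Baso, the median log2 fold change of the 6 genes was 0.07.

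Of 14 genes of heme synthesis, 3 rose, against 1.82% of all genes, and none fell. The list median was 0.54 as deposited and 0.86 with globin genes left out. Alas2, the erythroid enzyme that starts heme synthesis, had 317, 428 and 265 FPKM in the 3 Pro libraries and 1476, 1481 and 1362 in the 3 Baso libraries. Its log2 fold change was 2.12 (SE 0.14, limma adjusted p = 1.36e-06) and 2.44 with globin genes left out. Fech, which inserts iron into the ring in the last step, rose from 212, 239 and 183 to 548, 508 and 503 FPKM (1.30, SE 0.09). Slc25a39, a mitochondrial carrier, rose from 51.7, 80.8 and 69.0 to 157, 165 and 153 (1.25, SE 0.16). In all 3 genes the stages did not overlap and the Baso libraries lay closer together than the Pro libraries did.

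Of 21 iron genes 2 rose and 2 fell, against 1.82% and 3.4% of all genes. The list median was -0.10 as deposited and 0.21 with globin genes left out. Slc25a37, the mitochondrial iron importer known as mitoferrin-1, rose from 132, 176 and 119 to 639, 557 and 569 FPKM (2.06, SE 0.12, adjusted p = 1.27e-06). Ncoa4, the receptor that delivers ferritin to autophagy, rose from 26.3, 40.3 and 34.7 to 112, 70.9 and 73.2 (1.30, SE 0.25), with Baso 1 above the other Baso libraries. The genes that fell act at other points of iron handling. Steap3, the endosomal ferrireductase of the transferrin cycle, fell from 46.1, 72.4 and 83.0 to 16.1, 34.3 and 28.7 (-1.34, SE 0.29). Aco1, which encodes the iron-sensing protein IRP1, fell from 20.8, 19.8 and 27.0 to 5.92, 7.89 and 8.97 (-1.46, SE 0.14). The Steap3 libraries spread widely in both stages without overlapping. Of the list, 1 gene, against 2, was called lower on both scales without Pro 3 or without Baso 1. Fth1, the ferritin heavy chain, had 2549, 2463 and 2294 FPKM in Pro and 2165, 2267 and 2233 in Baso, a log2 fold change of -0.13 as deposited and 0.19 with globin genes left out (adjusted p = 0.18 and 0.0796).

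Genes of the red cell membrane were among those that rose. Of 15 genes of the membrane skeleton and its anchors, 7 rose, against 1.82% of all genes, and none fell. In 11 every Baso library lay above every Pro library, against 16.7% of all genes. The list median was 0.86 as deposited and 1.17 with globin genes left out. Tmod1, tropomodulin, which caps the short actin filaments of the skeleton, had 23.0, 26.1 and 15.1 FPKM in Pro and 103, 81.6 and 84.8 in Baso (2.05, SE 0.16). Slc4a1, the anion exchanger band 3, had 609, 709 and 427 in Pro and 2186, 1843 and 1892 in Baso (1.79, SE 0.15). Pro 3 was the lowest library for both. Epb42 (protein 4.2) rose from 78.8, 111 and 77.0 to 231, 217 and 215 (1.32, SE 0.13). Epb41 (protein 4.1) rose from 77.2, 105 and 47.8 to 265, 240.2 and 125 (1.44, SE 0.34). For Epb41 the lowest Baso library, Baso 3, lay just above the highest Pro library, Pro 2, and its standard error was the larger of the 2. Dmtn (dematin) rose by 1.57. Of 18 surface antigens and channels 2 rose, against 1.82% of all genes, and 4 rose without Pro 2 or without Baso 3. Art4, the Dombrock blood group protein, was one of them and rose from 10.3, 12.1 and 12 to 30.8, 26.5 and 26.7 FPKM (1.22, SE 0.08). Another 6 surface genes were called higher with globin genes left out and not as deposited. Among them Cd24a, a small surface glycoprotein, was the most abundant of the list, with 1349, 1505 and 1235 FPKM in Pro and 2454, 2529.8 and 2459 in Baso (0.87 as deposited and 1.18 with globin genes left out).

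**Figure D2:**
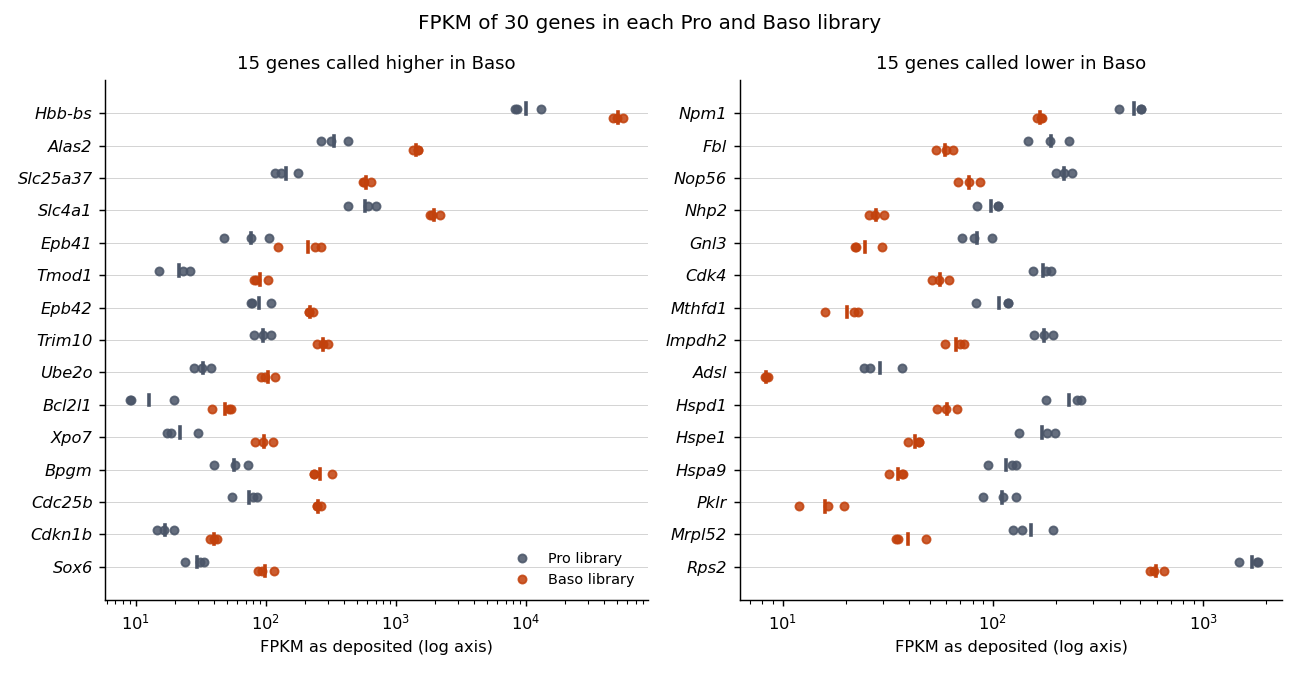
FPKM as deposited (log axis) of 30 genes in each of the 3 Pro libraries (grey points) and 3 Baso libraries (orange points), with the stage mean as a vertical tick; 15 genes called higher stand on the left and 15 called lower on the right. In each of the 30 genes the 3 Baso libraries lie on one side of the 3 Pro libraries.

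Of 17 ubiquitin genes known from erythroblasts, 8 rose, against 1.82% of all genes, and none fell. Without Baso 1 the count of 8 was 5. In 15 every Baso library lay above every Pro library, against 16.7% of all genes. The list median was 0.96 as deposited and 1.28 with globin genes left out. Ube2o, the conjugating enzyme that clears ribosomes and other proteins from reticulocytes, had 32.3, 37.9 and 28.2 FPKM in Pro and 119, 99.7 and 92.5 in Baso (1.63, SE 0.12). Trim10, an erythroid ubiquitin ligase, had 94.7, 109 and 81.9 in Pro and 301, 276 and 248 in Baso (1.52, SE 0.10). Mkrn1, a RING finger ligase, had 187, 198 and 170.1 in Pro and 474, 461 and 388 in Baso (1.25, SE 0.11). Baso 1 was the highest and Baso 3 the lowest Baso library in all 3 genes, with no overlap with Pro. Rnf11 and Trim58, the latter a ligase of late erythroblasts that acts on dynein, rose by 1.56 and 1.27. Of 37 subunits of the proteasome, which degrades ubiquitinated proteins, none rose and 1 fell, against 1.82% and 3.4% of all genes. The gene was Psmd3, from 127, 101 and 115 to 37.6, 44.1 and 49.4 FPKM. The median of the 37 was -0.62 as deposited and -0.31 with globin genes left out. Without Pro 1 or without Baso 1 no proteasome gene was called on both scales.

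Other lists held few genes that rose, where the share of all genes was 1.82%. Xpo7, a nuclear exporter that takes histones out of the condensing nucleus, went from 18.6, 29.9 and 17.5 to 115, 95.7 and 82.8 FPKM (2.13, SE 0.18) and was one of 2 called of 21 genes of the nuclear envelope and chromatin condensation. The other was Plek2, an actin-binding protein of erythroblasts, from 2.90, 2.73 and 1.91 to 11.9, 8.18 and 8.44 (1.58), which had a further log2 difference of 1.05 at the Poly step. Of 23 genes of the BCL2 family and the caspases, 1 rose and 1 fell on both scales, against 1.82% and 3.4% of all genes. As deposited 4 were called lower, against 9% of all genes. Bcl2l1, which encodes the survival protein BCL-xL, had 9.22, 19.7 and 9.08 FPKM in Pro and 38.9, 54.5 and 51.9 in Baso (1.93, SE 0.26, adjusted p = 6.57e-05). Pro 2 was the highest Pro library for Bcl2l1. Bpgm, which makes the oxygen-releasing metabolite of red cells, rose from 39.8, 73.5 and 57.7 to 235, 322 and 234 (2.22, SE 0.23) and was the only 1 of 21 genes on the glycolysis list to rise. In the erythropoietin and KIT pathway 1 of 33 genes rose. This was Cish, a feedback inhibitor downstream of the receptor, from 1.12, 1.10 and 1.12 to 4.89, 2.86 and 3.99 (1.19, SE 0.17), while the receptor gene Epor had 154, 144 and 148 in Pro and 149, 150.1 and 168 in Baso (0.06 as deposited, 0.38 with globin genes left out, and not called).

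Of 42 cyclins, kinases, inhibitors and E2F genes 4 rose and 1 fell, against 1.82% and 3.4% of all genes. Cdc25b, the phosphatase that opens mitosis, had 86.5, 79.8 and 55.1 FPKM in Pro and 266, 248 and 247 in Baso (1.79, SE 0.16). The inhibitor Cdkn2d (p19) rose from 45.4, 23.9 and 35.7 to 138, 97.1 and 120.1 (1.76, SE 0.24). The inhibitor Cdkn1b (p27) rose from 14.6, 19.9 and 16.5 to 42.3, 40.1 and 37.6 (1.2, SE 0.18), and Tfdp2, a partner of the E2F factors, rose by 1.69. The gene that fell was Cdk4, the kinase of early G1, from 179, 155 and 188 to 51.3, 55.4 and 61.6 (-1.61, SE 0.09, adjusted p = 1.12e-06), and its Pro and Baso libraries did not overlap. Of 38 mitosis genes 4 rose, against 1.82% of all genes, and none fell. Ube2c, the ubiquitin conjugating enzyme of the anaphase-promoting complex, rose from 235, 225 and 230.4 to 542, 561 and 566 (1.27, SE 0.06), and Cenpf, a kinetochore protein, from 18.8, 15.4 and 15 to 47.1, 32.2 and 43.0. Of 50 DNA replication genes none rose and 1 fell, against 3.4% of all genes that fell. The list median was -0.60 as deposited and -0.29 with globin genes left out. In 43 of the 50 every Baso library lay below every Pro library, against 46.4% of all genes. The gene that fell was Dut, which keeps uracil out of DNA, from 266, 215 and 227 to 77.2, 102 and 102 (-1.33, SE 0.11). Without Pro 1 or without Baso 1 Dut was not called on both scales. Pcna, the replication clamp, and Mcm7, of the replicative helicase, differed by -0.43 and -0.69 and were not called.

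Among erythroid transcription factors 2 of 21 rose, against 1.82% of all genes, and none fell on both scales (1 rose without Pro 3 or without Baso 1). The larger difference was that of Sox6, a partner in the silencing of embryonic globins, with 31.2, 33.5 and 24.2 FPKM in Pro and 117, 87.3 and 93.5 in Baso (1.71, SE 0.14). None of 21 progenitor factors and receptors was called on both scales or as deposited, where 13 had an unadjusted p under 0.05 in limma and a higher mean in Baso and 2 a lower mean (17% and 46.9% of all genes). None of the 10 genes that the study followed was called on either scale. As deposited, 3 of them had an unadjusted p under 0.05 in limma with a higher mean in Baso and 1 with a lower mean, against the same shares of all genes. The 3 were Gadd45a (0.62), Gata2 (0.60) and E2f8 (0.26). The lower 1 was Ccne1, from 138, 130 and 126 to 56.4, 69.5 and 73.8 FPKM, without overlap. Its log2 fold change was -0.98 (limma adjusted p = 1.07e-05), just short of the size needed for a call, and -0.66 with globin genes left out.

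Promoter sequence was read for genes described above, as the 250 bases before the annotated start in RefSeq on GRCm38.p6 (the build named mm10 in the labels). The letters AGATAA, the form of site preferred by the erythroid factor GATA1, were searched on both strands; on the second strand they read TTATCT. They were found in 9.99% of all 32851 promoters in the table and in 6.16% of the 10893 promoters of genes tested. For the genes that rose they were found in 25 of 230 promoters (10.9%). Promoters were matched to genes by symbol only, which found 158 of the 224 genes that rose. The following 3 promoters of genes that rose, a heme enzyme, a membrane protein and a ubiquitin ligase, were chosen because they hold a match, which is in capitals.
Alas2: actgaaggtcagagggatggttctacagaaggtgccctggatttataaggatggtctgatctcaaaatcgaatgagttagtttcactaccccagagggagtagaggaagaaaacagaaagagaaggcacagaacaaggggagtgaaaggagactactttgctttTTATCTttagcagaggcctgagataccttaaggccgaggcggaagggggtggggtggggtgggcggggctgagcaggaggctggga
Epb42: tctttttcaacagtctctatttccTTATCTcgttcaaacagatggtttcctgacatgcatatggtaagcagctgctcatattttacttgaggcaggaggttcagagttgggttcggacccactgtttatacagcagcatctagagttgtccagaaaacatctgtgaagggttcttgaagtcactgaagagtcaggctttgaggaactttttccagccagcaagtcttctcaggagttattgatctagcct
Trim10: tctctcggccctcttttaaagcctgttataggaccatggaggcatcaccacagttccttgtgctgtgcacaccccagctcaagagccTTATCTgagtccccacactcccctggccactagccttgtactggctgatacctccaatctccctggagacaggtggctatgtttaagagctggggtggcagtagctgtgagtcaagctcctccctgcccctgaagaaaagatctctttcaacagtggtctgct
The Alas2 window lies on the plus strand at chrX:150547167-150547416, with the match 86 bases before the start; the Epb42 window lies on the minus strand at chr2:121036878-121037127, with the match at 226 bases; the Trim10 window lies on the plus strand at chr17:36869324-36869573, with the match at 163 bases. A match is a run of letters and says nothing on binding in these cells.

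Genes that make ribosomes fell. Of 50 genes of ribosome biogenesis, 25 fell on both scales and 40 as deposited, against 3.4% and 9% of all genes, and none rose. In 49 of the 50 every Baso library lay below every Pro library, against 46.4% of all genes. The summed FPKM of the 50 was 2971, 2430.2 and 3000.0 in Pro 1, Pro 2 and Pro 3 and 1049.9, 1175 and 1111 in the Baso libraries. The list median was -1.30 as deposited and -0.99 with globin genes left out. The count of 25 lay between 20 and 28 when each library was left out in turn. Npm1, the abundant nucleolar chaperone nucleophosmin, had 507, 398 and 508 FPKM in Pro and 169, 171 and 162 in Baso (-1.48, SE 0.10, adjusted p = 1.36e-06; -1.16 with globin genes left out). Fbl (fibrillarin), the methyltransferase of box C/D small nucleolar ribonucleoproteins, fell from 231, 147 and 186 to 53.7, 64.2 and 60.1 (-1.63, SE 0.13). Nop56, a core protein of the same particles, fell from 219, 200.4 and 238 to 68.1, 86.5 and 76.9 (-1.50, SE 0.11). Nhp2 and Gar1, of the box H/ACA particles that make pseudouridine, fell by 1.78 and 1.72 on the log2 scale. Gnl3 (nucleostemin), a nucleolar GTPase, fell from 81.1, 71.6 and 99.1 to 22, 29.5 and 22.3. Polr1b, a core subunit of RNA polymerase I, fell from 19.2, 18.4 and 23.2 to 6.74, 7.81 and 6.05, and Nop2, an rRNA methyltransferase, from 36, 30.3 and 39.3 to 11.7, 12.1 and 12.6. The log2 fold changes of Npm1 and Polr1b, which lie far apart in level, were -1.48 and -1.43.

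**Figure D3:**
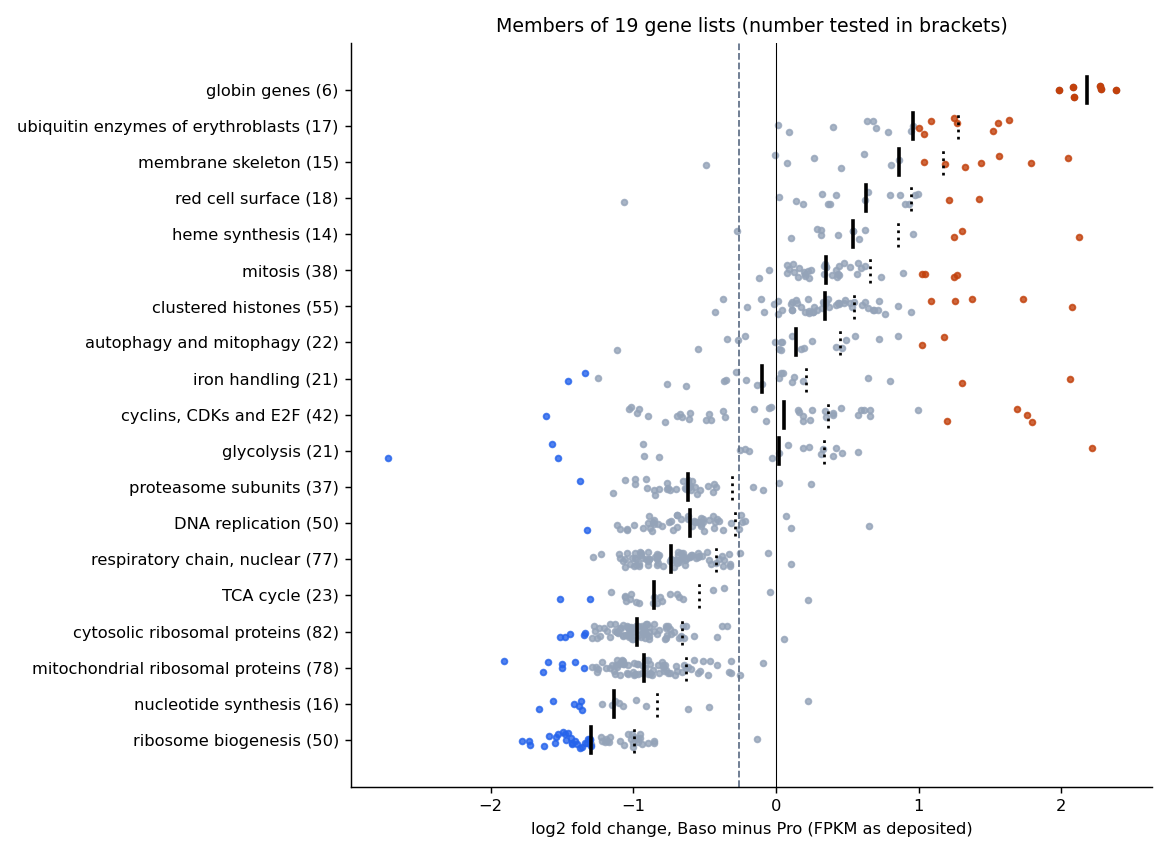
Each point is 1 gene, at its log2 fold change as deposited, in 19 gene lists; orange and blue mark genes called higher and lower on both scales (for globins, as deposited) and grey the rest. Solid ticks are list medians as deposited, dotted ticks with globin genes left out, and the dashed line is the median of all genes (-0.26). Globins stand at a median of 2.18 and ribosome biogenesis at -1.30.

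The proteins of the ribosome itself moved the same way with fewer calls. Of 82 cytosolic ribosomal protein genes 40 were called lower as deposited and 5 on both scales, against 9% and 3.4% of all genes. The list median was -0.97 as deposited and -0.66 with globin genes left out. The summed FPKM of all 86 listed genes, tested or not, was 75676 to 81743 in Pro and 35555 to 42828 in Baso. Rps2, of the small subunit, had 1808, 1486 and 1818 FPKM in Pro and 556, 649 and 583 in Baso (-1.51, SE 0.09), and Rpl12 and Rpl14, of the large subunit, fell by 1.44 and 1.34 on the log2 scale. Pro 1 stood apart for several of these genes: Rpl18 had 571, 238 and 266 FPKM in Pro 1, Pro 2 and Pro 3, and Rpl31, named after its values were seen, had 352, 1024 and 925 (487, 585 and 574 in Baso). The count of 5 was 2 without Pro 1, 11 without Pro 2, 8 without Pro 3 and 9 without Baso 2, and the count of 40 was 25 without Baso 1. Of 78 mitochondrial ribosomal protein genes 31 were called lower as deposited and 7 on both scales, against 9% and 3.4% of all genes. Mrpl52, of the large subunit, fell from 193, 124 and 137 to 34.8, 48.0 and 35.4 (-1.90, SE 0.16). Mrpl12, also of the large subunit, fell from 93.1, 56.6 and 77.4 to 21.1, 25.3 and 23.5 (-1.63, SE 0.15). Of 20 aminoacyl-tRNA synthetases 5 were called lower as deposited and none on both scales, against 9% and 3.4% of all genes. Without Pro 2 these counts were 8 and 3. With globin genes left out, 14 of the 20 had an unadjusted p under 0.05 in limma and a lower mean in Baso. The share of all genes was 29.1%.

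Of 16 genes of nucleotide synthesis 6 fell on both scales (4 without Baso 1) and 11 as deposited, against 3.4% and 9% of all genes. In 15 every Baso library lay below every Pro library, against 46.4% of all genes. The median was -1.14 as deposited and -0.83 with globin genes left out. Impdh2, the enzyme that commits purines to guanine nucleotides, had 174, 157 and 193 FPKM in Pro and 59.1, 72.6 and 69.4 in Baso (-1.37, SE 0.09). Adsl, an adenylosuccinate lyase used in 2 steps of purine synthesis, fell from 37.1, 24.2 and 26.0 to 8.31, 8.20 and 8.56 (-1.66, SE 0.15), and its Baso libraries lay within 1 FPKM of each other. Pfas, Atic and Ppat, of the purine pathway, and Cad, which starts pyrimidine synthesis, fell by 1.57, 1.42, 1.38 and 1.36 on the log2 scale. Of 22 genes of amino acid and one-carbon metabolism 2 fell and 1 rose, against 3.4% and 1.82% of all genes. Mthfd1, which makes the folate carriers of one-carbon units for purines, fell from 118, 83.1 and 118 to 15.9, 21.8 and 22.9 (-2.34, SE 0.15, adjusted p = 1.35e-06). Aldh18a1, of proline synthesis, fell from 40.2, 35.7 and 44.4 to 8.26, 13.2 and 12 (-1.77). The gene that rose was Slc1a5, a glutamine carrier, from 85.2, 101 and 83.8 to 232, 206 and 209 (1.26, SE 0.09).

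The same promoter window was searched for CACGTG, the E-box read by MYC and other basic helix-loop-helix factors, which is its own reverse complement. It was found in 6.02% of all promoters in the table, in 8.61% of those of genes tested, in 12 of 230 promoters (5.22%) of genes that rose and in 31 of 299 (10.4%) of genes that fell, of which 250 of 417 were matched; by list it was found in 3 of 52 promoters (5.77%) of ribosome biogenesis and 3 of 16 (18.8%) of nucleotide synthesis, and in 4 of 15 (26.7%) of heme synthesis, 1 of 16 (6.25%) of the membrane skeleton and 1 of 19 (5.26%) of the ubiquitin enzymes. AGATAA was found in none, 3, 1, 3 and 2 promoters of the same lists in that order, and with so few promoters these shares are imprecise. AGATAA was found in 18 of 299 promoters (6.02%) of genes that fell. The 3 promoters shown here, of a G1 kinase, an rRNA methyltransferase and a purine enzyme, were chosen because they hold CACGTG, in capitals.
Cdk4: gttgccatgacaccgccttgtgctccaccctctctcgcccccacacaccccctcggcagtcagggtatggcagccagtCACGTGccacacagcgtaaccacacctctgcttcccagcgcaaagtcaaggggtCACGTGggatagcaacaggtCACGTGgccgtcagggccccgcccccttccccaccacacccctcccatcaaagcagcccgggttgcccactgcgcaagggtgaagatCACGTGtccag
Nop2: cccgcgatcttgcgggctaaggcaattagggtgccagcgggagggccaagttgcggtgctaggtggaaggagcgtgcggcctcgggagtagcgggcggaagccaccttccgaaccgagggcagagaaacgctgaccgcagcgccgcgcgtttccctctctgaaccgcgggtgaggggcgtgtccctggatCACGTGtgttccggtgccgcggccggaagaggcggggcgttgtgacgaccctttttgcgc
Impdh2: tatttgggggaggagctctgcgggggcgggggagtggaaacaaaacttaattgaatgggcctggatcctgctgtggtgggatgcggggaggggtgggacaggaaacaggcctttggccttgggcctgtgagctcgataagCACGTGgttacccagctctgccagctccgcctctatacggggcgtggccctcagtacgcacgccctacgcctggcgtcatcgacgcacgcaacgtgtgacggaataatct
All 3 windows lie on the plus strand, Cdk4 at chr10:127063285-127063534, Nop2 at chr6:125131633-125131882 and Impdh2 at chr9:108560186-108560435. Cdk4 holds 4 matches, 172, 118, 98 and 11 bases before the start, and Nop2 and Impdh2 hold 1 each, at 60 and 110 bases.

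Of 25 genes of stress response and chaperones 6 fell and 1 rose, against 3.4% and 1.82% of all genes (2 rose without Pro 1, Pro 2, Baso 2 or Baso 3). Hspd1 (HSP60) and Hspe1 (HSP10), which form the mitochondrial folding chamber and lie next to each other on chromosome 1, both fell. Hspd1 had 262, 178 and 252 FPKM in Pro and 54.4, 67.6 and 59.7 in Baso, and Hspe1 had 181, 133 and 197 FPKM in Pro and 39.7, 44.3 and 44.3 in Baso. Their log2 fold changes were -1.90 (SE 0.13) and -1.95 (SE 0.12), and Pro 2 was the lowest Pro library in both. Hspa9 (mortalin), the mitochondrial HSP70, fell from 129, 94.6 and 123 to 32.0, 37.3 and 36.9 (-1.67, SE 0.11). In the cytosol Hsp90ab1 fell from 853, 642 and 787 to 259, 325 and 303 (-1.36), and Hsph1 and Hsp90aa1 fell by 1.78 and 1.42 on the log2 scale. Hspa8, the constitutive cytosolic HSP70, had 719.8, 891 and 1035 in Pro and 312, 360.0 and 435 in Baso, called as deposited (-1.25) and not with globin genes left out (-0.94). The gene that rose, Ppp1r15a (GADD34), ends the arrest of translation under stress and had 98.5, 112 and 66.3 FPKM in Pro and 309, 211 and 203 in Baso (1.38, SE 0.21).

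In energy metabolism 3 of 21 glycolysis genes and 2 of 23 genes of the TCA cycle fell, against 3.4% of all genes. None of 77 nuclear genes of the respiratory chain was called on both scales. Of the 77, 10 were called lower as deposited (19 without Pro 2 and 17 without Baso 2), against 9% of all genes. With globin genes left out 58 had an unadjusted p under 0.05 in limma and a lower mean, against 29.1% of all genes. Pklr, the pyruvate kinase of red cells and liver, had 111, 90.1 and 129 FPKM in Pro and 12, 16.4 and 19.5 in Baso (-2.72, SE 0.20, adjusted p = 1.85e-06). Pfkm, a phosphofructokinase, had 70.6, 60.1 and 58.8 in Pro and 18.6, 22.8 and 22.3 in Baso (-1.53, SE 0.11). Pdk1, which turns pyruvate dehydrogenase off, fell by 1.57 on the log2 scale. Of the TCA cycle, Idh3a, an isocitrate dehydrogenase subunit, fell from 48.3, 49.6 and 61.8 to 15.8, 19.6 and 18.5 (-1.51), and Suclg2, of succinyl-CoA ligase, by 1.30; without Pro 3 or without Baso 1, 1 of the 23 was called on both scales. RNA encoded in mitochondria fell for 7 of 35 genes on both scales and 14 as deposited, against 3.4% and 9% of all genes. These counts were 10 and 26 without Pro 1, and the first was also 10 without Baso 1. Of the 7 genes, 6 are mitochondrial tRNAs, so the count is mostly not one of messenger RNA. The summed FPKM of all 37 listed genes, tested or not, was 16950 in Pro 1, 28020.3 in Pro 2, 32070 in Pro 3 and 13823 to 14658 in Baso. Pro 1 thus lay far below the other Pro libraries. The gene mt-Nd1, for a subunit of complex I, had 1332, 1984 and 2484 FPKM in Pro and 700.5, 723 and 730.1 in Baso (-1.38, SE 0.17). The gene mt-Co1, of complex IV, had 4005, 6342 and 6821 in Pro and 3307, 3256 and 3574 in Baso (-0.72 as deposited, -0.41 with globin genes left out, not called). Of 32 genes of sterol and fatty acid synthesis 1 fell, against 3.4% of all genes. It was Dhcr7, the last enzyme of cholesterol synthesis, from 9.88, 10.4 and 18.4 to 3.09, 4.29 and 3.49 (-1.54).

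**Figure D4:**
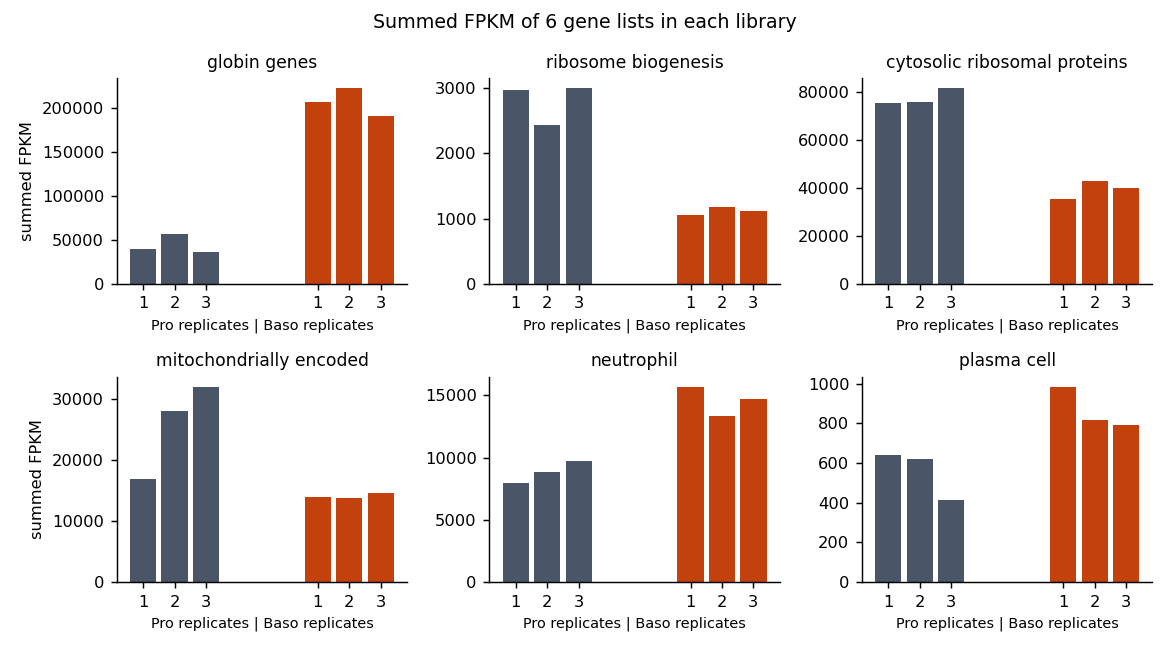
Summed FPKM as deposited (y axis, from 0) of 6 gene lists in each library, with Pro replicates 1 to 3 in grey and Baso replicates 1 to 3 in orange. Globin sums lie between 36554 and 56055 in Pro and between 191024 and 222165 in Baso, both ribosome lists are lower in every Baso library, the mitochondrially encoded sum of Pro 1 (16950) is the lowest of Pro, and neutrophil and plasma cell marker sums are higher in every Baso library.

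Genes outside these lists were also among the 12 largest increases and the 12 largest decreases named by the rule of size, of which some are given here. Fam46c, a poly(A) polymerase, had 22.3, 32.9 and 23.4 FPKM in Pro and 164, 128 and 133 in Baso (2.41, SE 0.13). Cd36, the fatty acid and thrombospondin receptor of erythroid precursors, had 9.04, 11.8 and 10.2 in Pro and 77.9, 64.1 and 36.7 in Baso (2.36, SE 0.24), with Baso 3 the lowest Baso library. Gch1, the first enzyme of tetrahydrobiopterin synthesis, had 17.9, 23.2 and 14.2 in Pro and 98.2, 90.5 and 83.4 in Baso (2.26, SE 0.14). Pro and Baso libraries did not overlap in any of the 3 genes. Among the genes that fell, Hpn, the membrane serine protease hepsin, had 38.7, 35.7 and 43.9 FPKM in Pro and 2.20, 5.22 and 2.72 in Baso (-3.26, SE 0.23). C1qtnf12, a secreted C1q-like protein, had 377, 270.3 and 369 in Pro and 49.0, 61.1 and 69.8 in Baso (-2.48, SE 0.17). Mt2, a metallothionein that binds zinc, had 60.7, 47.8 and 75.3 in Pro and 7.70, 8.27 and 11.5 in Baso (-2.61, SE 0.24). Fads2, a fatty acid desaturase, and Aldh1a7, an aldehyde dehydrogenase, fell by 2.37 and 2.36 on the log2 scale. At the edge of detection, 171 genes had an FPKM of at least 1 in all Pro libraries and under 1 in all Baso libraries, and 81 the reverse. Of these, 25 are among the 417 that fell and 22 among the 224 that rose; they passed the filter on low values only through the stage in which they are high, so a difference in that direction was built in.

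Whether this step differed from the next one, Baso to Poly, was tested as the difference of the 2 steps in the same fit; the steps share the Baso libraries, so their values are not independent. The difference was called for 1169 genes as deposited (9.52%), 313 higher at the first step (2.55%) and 856 lower (6.97%), and for 615 on both scales (5.01%), 306 higher (2.49%) and 309 lower (2.52%). Ribosome biogenesis had a median of -1.30 at the Baso step and -0.04 at the Poly step, and the difference was called on both scales for 23 of its 50 genes, all lower at the first step, among them Npm1 (difference -1.44), Fbl (-1.50) and Nhp2 (-1.76). Membrane skeleton genes had medians of 0.86 and -0.03, with the difference called for 8 of 15, and ubiquitin enzymes had medians of 0.96 and -0.08, with 9 of 17 called. For heme synthesis 6 of 14 were called, among them Alas2 (difference 2.16), and for nucleotide synthesis 4 of 16. Rps2 had log2 fold changes of -1.51 and then -0.58, a difference that was not called. Of the 417 genes that fell, 16 were also called lower at the Poly step as deposited. Pklr, Pfkm and C1qtnf12 were among them, and the difference of their steps was not called on both scales. As deposited the difference was called for Pklr (-1.26) and C1qtnf12 (-1.25). With globin genes left out it was -0.97 and -0.96, under the size needed for a call. Pklr dropped by 1.46 after 2.72, Pfkm by 1.24 after 1.53, and C1qtnf12 by 1.23 after 2.48. Cdkn2d had a mean of 118 FPKM in Baso and 210.4 in Poly, and Cish had 1.58 in Poly, near its Pro level.

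**Figure D5:**
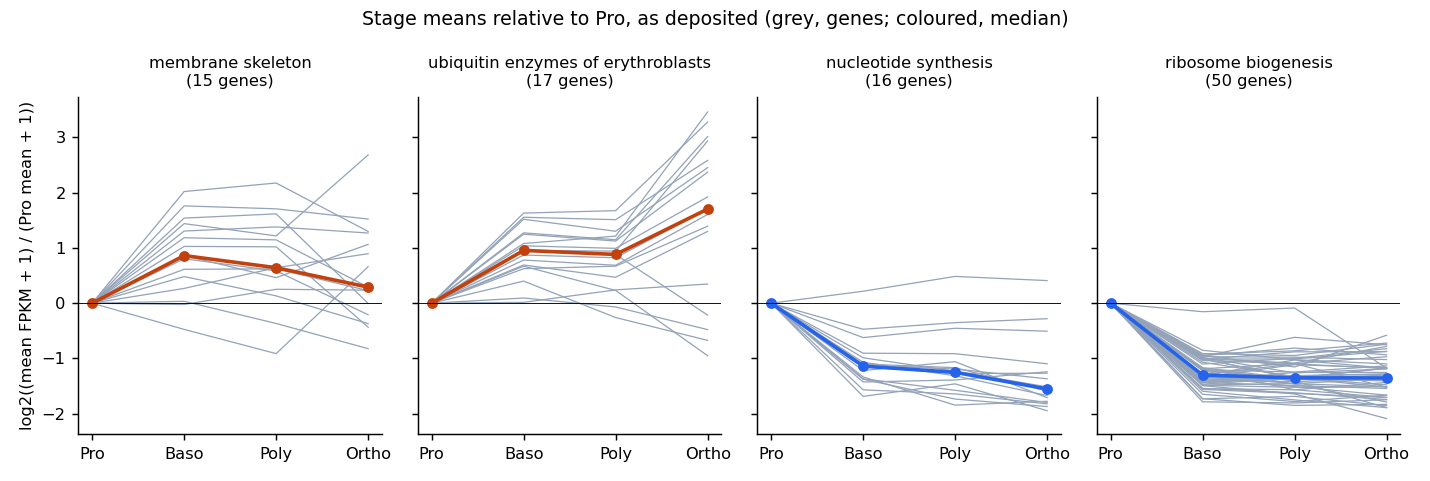
Stage means relative to the Pro mean on the log2(FPKM + 1) scale, as deposited, for 4 gene lists over Pro, Baso, Poly and Ortho; grey lines are genes and the coloured line their median. The list medians at the Baso step are near those of the tested fold changes (0.86, 0.96, -1.14 and -1.30 from left to right), and the lines change less between Baso and Poly; no error is drawn.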

How the data were processed

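RNA-seq covered 4 sorted erythroblast stages of mouse marrow with 3 libraries each (Pro, Baso, Poly, Ortho). The authors deposited 1 table of FPKM per gene and library and no counts were used here. Per the labels and the methods, reads were trimmed with Cutadapt and Trimmomatic, aligned to mm10 with HISAT2 and counted with featureCounts; versions, annotation release, strand setting and the tool that computed FPKM are not given in the sources used here. The labels name Trizol and a NEBNext Ultra kit, while the methods name another lysis and library kit, so the library protocol is uncertain. Depth behind each value is unknown, and no count test could be run, although the study's own method was a count test.

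A repeated identifier was removed, leaving 29838 genes; 21 symbols had been turned into dates and were not named. Genes that reached 1 FPKM in 3 or more of the 6 Pro and Baso libraries (12284) were fitted on log2(FPKM + 1) in limma 3.58.1 (R 4.3.3) over all 12 libraries, with a variance trend and Benjamini-Hochberg adjustment; SE is the moderated standard error. Genes were called at an adjusted p under 0.05 together with an absolute log2 fold change of 1 or more. The fit was repeated without globin genes, each library rescaled to the mean sum. The step difference was (Baso minus Pro) minus (Poly minus Baso). The test was tried on simulated data in which 200 of 12284 genes changed in random directions. It recovered 95.5% of them and called 3 unchanged genes. The changed genes had log2 sizes of 1.2 to 3, all above the size needed for a call. They were drawn only from genes above the lowest values, so the recovery does not cover genes near 1 FPKM. The simulation had no globin share that differed between stages, so it cannot speak to the choice between the scales. Nothing in the labels says that replicates were separate animals, so p-values measure the spread between these libraries, and 3 against 3 libraries cannot go below p = 0.1 in an exact permutation test of 1 gene. Same-numbered Baso and Poly libraries deviated together (r = 0.197 to 0.241 over genes), which was seen in the values and is stated in no label.

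Genes were named by rule: the 12 largest increases and decreases among genes called on both scales with stages that did not overlap and a stage mean of 10 FPKM or more; in each list the members called on both scales and the 4 most abundant; the 3 most abundant markers of each marker list; and the genes the study named. Genes, lists and tests were chosen with earlier results of these data known. Listed symbols with no match in the table, among them Ahsp and Hrk, were not analysed here. Some genes that the rule selects are not reported here by name, and they remain in the counts and medians of their lists. Coordinates and gene types come from GENCODE M21 and promoters from RefSeq, both on GRCm38. Whether reads were assigned by strand is not stated, so overlapping genes cannot be told apart.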

Additional observations from a re-analysis of the deposited data

Results flagged for a closer look

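One long intergenic RNA, Gm28872, which was chosen after its values were seen, turned direction between the steps. It had 0.0429, 0.353 and 0 FPKM in Pro 1, Pro 2 and Pro 3, 1.49, 1.34 and 1.14 in Baso 1, Baso 2 and Baso 3, and 0, 0.446 and 0 in Poly 1, Poly 2 and Poly 3. The log2 fold change was 1.05 at the Baso step and -1.04 at the Poly step, and the difference of the steps was 2.08 (SE 0.50). No Pro library reached 1 FPKM, so the gene passed the filter on low values only through the Baso libraries, which both steps share. The rise and the turn were thereby favoured by the filter and by the choice of the gene, and the values are given as a description with no test.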

How the results depend on the processing

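The settings of the fit without globin genes, including its left-out libraries, were chosen after seeing the data. Of 104 named genes 96 were called as deposited. All 96 kept their direction under the 18 alternatives and 84 also kept the call as deposited. With each library left out in turn 94 kept that call. Col1a1 did not without Pro 2 or without Baso 3, nor Ighv1-55 without Pro 2. These counts do not cover the call on both scales. Dut and Psmd3 lost that call without Pro 1 or without Baso 1. In the iron list and the TCA list 1 gene, against 2, was called lower on both scales without Pro 3 or without Baso 1. The 4 abundant globins lost the call when no filter on low values was used, Plek2, Cish, Irf7, Suclg2, Snord14c and Ighv1-55 with a pseudocount of 5, and Hspa8 and Suclg2 with libraries centred on the median; the causes were not tested. Fth1, not called, turned to 0.19 with globin genes left out and to 0.17 with libraries centred on the median, and Epor, not called, to -0.12 with libraries rescaled to the same total. With a pseudocount of 5 the 1335 calls were 596, the 897 calls with globin genes left out were 394, and the 1169 calls of the step difference were 476; this pseudocount shrinks the fold changes of low genes by construction. With a pseudocount of 0.1 the 897 calls were 1388. With the adjusted p as the only criterion they were 7345, 6587 and 3743. Leaving out each library in turn gave 1136 to 1621, 785 to 1147 and 864 to 1441 calls. Of 828 counts of list members under an alternative, 167 differed by over 1.5 times from the count as reported. Replicate numbers are shared by the stages, but same-numbered Pro and Baso libraries did not deviate together (r = -0.01 to 0.06 over genes), and not every library correlated best with its own number. With the replicate number as a block, 1344 genes were called (237 higher, 1107 lower), 908 with globin genes left out, and 1188 for the step difference. The block changed no call as deposited of a named gene. Exact zeros and values near 1 FPKM are the least certain, since depth is unknown.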

Other observations

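Of 22 interferon-stimulated genes tested, 5 rose, against 1.82% of all genes, and none fell (4 rose without Pro 2, without Pro 3 or without Baso 1). In 8 of the 22 every Baso library lay above every Pro library and in 1 below, against 16.7% and 46.4% of all genes. In 13 the stages overlapped. The list median was 0.38 as deposited and 0.63 with globin genes left out, and 0.20 and 0.44 without Baso 1. The summed FPKM of the list was 651 in Baso 1, 427 in Baso 2 and 435 in Baso 3, and 209.8 to 295 in Pro. Isg15, a ubiquitin-like protein, had 47.1, 22.4 and 17.4 FPKM in Pro 1, Pro 2 and Pro 3 and 198, 120.4 and 113 in Baso 1, Baso 2 and Baso 3, a log2 fold change of 2.35 (SE 0.33, limma adjusted p = 8.82e-05). Rsad2 (viperin), an antiviral enzyme, had 22.5, 21.8 and 15.2 and then 136, 80.0 and 86.7, a log2 fold change of 2.27. Baso 1 was the highest library for both genes, and Pro 1 the highest Pro library. Oas3, a sensor of double-stranded RNA, and Irf7, a transcription factor of the response, rose by 1.24 and 1.16.

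Of 55 clustered histone genes 5 rose, against 1.82% of all genes, and none fell. Among the 5, Hist4h4 reached 1 FPKM in no Pro library and so passed the filter on low values only through Baso. Hist3h2ba, an H2B gene, had 7.29, 11.4 and 7.80 FPKM in Pro and 38.2, 46.7 and 35.0 in Baso (2.07, SE 0.20), and Hist1h2bc had 6.84, 12.4 and 9.02 and then 34.5, 33.9 and 30.1 (1.73, SE 0.19). Of 75 immunoglobulin V genes 6 rose (10 without Baso 2 and 4 without Baso 3), against 1.82% of all genes. Of the 6, 2 (Ighv2-2 and Igkv8-21) also passed the filter only through Baso, so that a rise was built in and the count is not support. Ighv1-55 had 4.01, 2.51 and 5.76 FPKM in Pro and 10.1, 11.1 and 7.77 in Baso (1.10, SE 0.22), and was not called without Pro 2; V genes are near copies of each other, so reads may be split among them. Plasma cell marker sums, 412 to 640 in Pro and 790 to 986 in Baso, moved with these genes, and their part was not tested.

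Of 54 small nucleolar RNAs on the list, 14 fell on both scales, against 3.4% of all genes, and none rose. In 24 every Baso library lay below every Pro library, near the share of all genes (46.4%), and in 30 the stages overlapped. Counted by annotation in place of the list, 25 of the 417 genes that fell are small nucleolar RNAs. Snora61, a box H/ACA RNA within Snhg12, had 16, 14.8 and 14.2 FPKM in Pro and 1.66, 4.39 and 0.158 in Baso (-2.65), and Snord34, a box C/D RNA in an intron of the ribosomal protein gene Rpl13a, had 20.2, 14.2 and 20.8 and then 5.79, 4.47 and 5.03 (-1.66). Of the 14, 12 lie in a tested gene on the same strand, in 9 different host genes; 6 of the 12 have a host called lower as deposited and none a host called lower on both scales. The median log2 fold change was -1.80 for the 12 and -0.98 for their hosts, and each of the 12 had the larger fall; the 12 were chosen for their own fall, so the comparison is a description. Snord14c in Hspa8 (-2.06 against -1.25) and Snord68 in Rpl13 (-1.99 against -1.01) are examples. The RNAs have a median length of 91.5 bases, where FPKM is imprecise, and reads of a small RNA and its host cannot be told apart.

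Genes that fell were shorter. Protein-coding genes that fell (314) had a median of 3332 exonic bases and a median span of 14323 bases, those that rose (184) 4347 and 24416, and all protein-coding genes tested (10496) 4433 and 22726. Mean FPKM over the 6 libraries had a median of 15.1, 39.0 and 12.1 in the same order. Among the 417 genes that fell were 44 processed pseudogenes and 6 mitochondrial tRNAs; pseudogenes share sequence with their parent genes, so their values are uncertain.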
